A study of Mus musculus with 14 samples.

Results

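Synaptic organizers are adhesion proteins that join the axon to the postsynaptic cell and recruit the machinery of a synapse on each side. Presynaptic neurexins bind neuroligins, LRRTMs and, through secreted cerebellins, receptors on the other cell. Presynaptic receptor phosphatases of the LAR type bind SLITRKs and relatives of the interleukin 1 receptor. Beneath the postsynaptic membrane, DLG proteins hold receptors and adhesion proteins, DLGAP proteins link DLG to SHANK, and HOMER links SHANK to metabotropic glutamate receptors. The genes described here are 49 members of these families, chosen by name but with earlier results of the same data known. Of them 42 had a probe set that carries only their symbol, 1 probe set each, among 14860 genes so measured. Cbln4, Slitrk2, Il1rapl1, Cadm2, Ntng2, Shank1 and Shank2 had none and are not analysed here.

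The 14 Affymetrix exon arrays held RNA of cerebral cortex and hippocampus from C57BL/6 mice at postnatal day 7. Control mice had floxed alleles of Ctcf and no Cre (fl/fl; +/+). Conditional knockout (cKO) mice had the same floxed alleles and 1 copy of Nex-Cre (fl/fl; +/Cre), which is expressed from the Neurod6 locus in excitatory neurons of cortex and hippocampus. CTCF is a zinc finger protein that anchors chromatin loops. No group had Cre without floxed Ctcf, so effects of Ctcf loss, of Cre and of lower Neurod6 cannot be told apart, and the tissue also held cells in which Cre is not expressed. The labels call the arrays biological replicates without naming animals, so p-values measure the spread between arrays only.

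Cortex was represented by 4 arrays of each genotype and hippocampus by 3, all from mice labelled male. The arrays labelled hippocampus control 2, cKO 1 and cKO 3 were near-copies of cortex control 3, cKO 3 and cKO 2 (Spearman correlation 0.997 in each pair, at most 0.990 in any other pair) and had cortical marker levels, with Prox1, a dentate granule cell factor, between 6.65 and 6.91 against 8.91 to 9.28 on the other 3. They were set aside, which left 2 control arrays and 1 cKO array of hippocampus. Y-linked signal was missing on cortex cKO 1 and 4, hippocampus control 1 and hippocampus cKO 2. The SD over all probe sets was 2.25 to 2.28 on the cortex arrays and 2.19 to 2.21 on every array labelled hippocampus, near-copies included. If the arrays labelled hippocampus were a set of their own, region and set were separable only through the 3 matching pairs. Ctcf fell by 1.42 on the log2 scale in cKO cortex (SE 0.08, limma adjusted p = 8.42e-05). Values below are log2 expression. The mean over all arrays lay above 3.55 for all 42 members, the median of 719 olfactory receptor probe sets, taken as a guide to background. Many of those probe sets also lie above their median, so passing it does not by itself show that a gene was detected.

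The first comparison asked which organizers and scaffolds differed between cKO and control cortex. Il1rapl2, Cbln1, Flrt2 and Lrrtm2 were lower in cKO cortex, and no member was higher. All 4 encode adhesion or secreted organizer proteins. None of the 12 scaffold genes passed in limma. An unadjusted p under 0.05 was found for 4 of the 12 scaffolds and 9 of the 30 organizers. Whether the 2 roles differ was not tested. A call needed an adjusted p under 0.05 in limma, over 23332 probe sets, and a fold change above 1.2. The 4 calls were 9.52% of the members, against 1.95% of all probe sets called in either direction, 1.36% called lower and 0.591% called higher. Many of those probe sets carry no symbol; over 1 probe set per gene symbol, 5 members were called (Cbln2 in addition), against 4.21% of genes. An unadjusted p under 0.05 in limma was found for 13 members. Counts by unadjusted p, here and below, have no share of all probe sets beside them, so they cannot be weighed against the array. The median change of the members was -0.02, as it was for all probe sets. Of the 42 changes 24 were negative and 32 lay within 1.2-fold (0.263 on the log2 scale).

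Il1rapl2 had the largest change. It encodes an X-linked postsynaptic relative of the interleukin 1 receptor accessory protein, close to Il1rapl1, which binds LAR-type phosphatases. In cortex Il1rapl2 (probe set 7014077) read 7.64, 7.51, 7.46 and 7.53 in controls 1 to 4 and 5.26, 5.93, 5.75 and 5.74 in cKO 1 to 4, the order kept for all values below. The highest cKO array thus lay well below the lowest control array. The mean fell from 7.54 ± 0.08 to 5.67 ± 0.29 (SD, n = 4 per group), a 3.65-fold change (-1.87, SE 0.14, limma adjusted p = 0.000313, 95% interval -2.18 to -1.56). It was called in each of the 26 alternative analyses, and without the 2 cKO arrays that lack Y-linked signal the change was -1.70. Il1rap, the accessory protein itself and a partner of LAR-type phosphatases, stood at -0.17 (SE 0.10) with overlapping groups.

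Cbln1 encodes a secreted protein that bridges neurexins to glutamate receptors of the delta class and is best known from the cerebellum. It read 8.81, 8.57, 8.61 and 8.73 on the control arrays and 7.83, 7.01, 7.04 and 7.83 on the cKO arrays. The groups did not overlap, and the 2 cKO arrays at 7.83 were those without Y-linked signal. The change was -1.25 (2.38-fold, SE 0.20, limma adjusted p = 0.0153, n = 4 per group), -1.55 with Y-linked signal as a covariate and -1.65 without those 2 arrays. Its call ended without cortex control 4 (adjusted p = 0.0525). Cbln2, which also binds neurexins, read 8.58, 8.52, 8.43 and 8.44 on control and 7.97, 8.28, 7.97 and 8.11 on cKO arrays. Every cKO array of Cbln2 lay below every control array, and its change of -0.41 (SE 0.09, adjusted p = 0.0576) missed the threshold. It passed in 6 of 26 alternatives, among them trend and robust moderation (adjusted p = 0.0285) and a fit without cortex cKO 2 (adjusted p = 0.0409).

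Flrt2, a repellent and adhesive ligand of UNC5 receptors and latrophilins, read 10.67, 10.71, 10.60 and 10.66 on control and 10.20, 9.97, 10.04 and 10.22 on cKO arrays. The gap between the groups was wider than either group's range, and the change was -0.55 (1.47-fold, SE 0.08, limma adjusted p = 0.00671, n = 4 per group). It was called in 23 of 26 alternatives. With all 14 arrays in their labelled groups the adjusted p was 0.0560, and the fold is under 1.5, the stricter minimum tried. Its relatives Flrt1 (-0.16, SE 0.07) and Flrt3 (0.21, SE 0.11) were not called. Lrrtm2, a postsynaptic ligand of neurexins, read 10.66, 10.64, 10.50 and 10.79 on control and 10.21, 10.25, 10.19 and 10.27 on cKO arrays. The cKO arrays lay close together and all below control. Its change of -0.42 (1.34-fold, SE 0.08, limma adjusted p = 0.0280) was called in 15 of 26 alternatives and in 4 of the 11 that leave out 1 array. It was not called with Y-linked signal as a covariate (adjusted p = 0.120), nor without cortex control 1, 2 or 4 or any single cortex cKO array, with adjusted p up to 0.0904. The number of members called fell to 2 without cortex control 4. Lrrtm1, Lrrtm3 and Lrrtm4 stood at 0.19, 0.12 and -0.32.

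**Figure D1:**
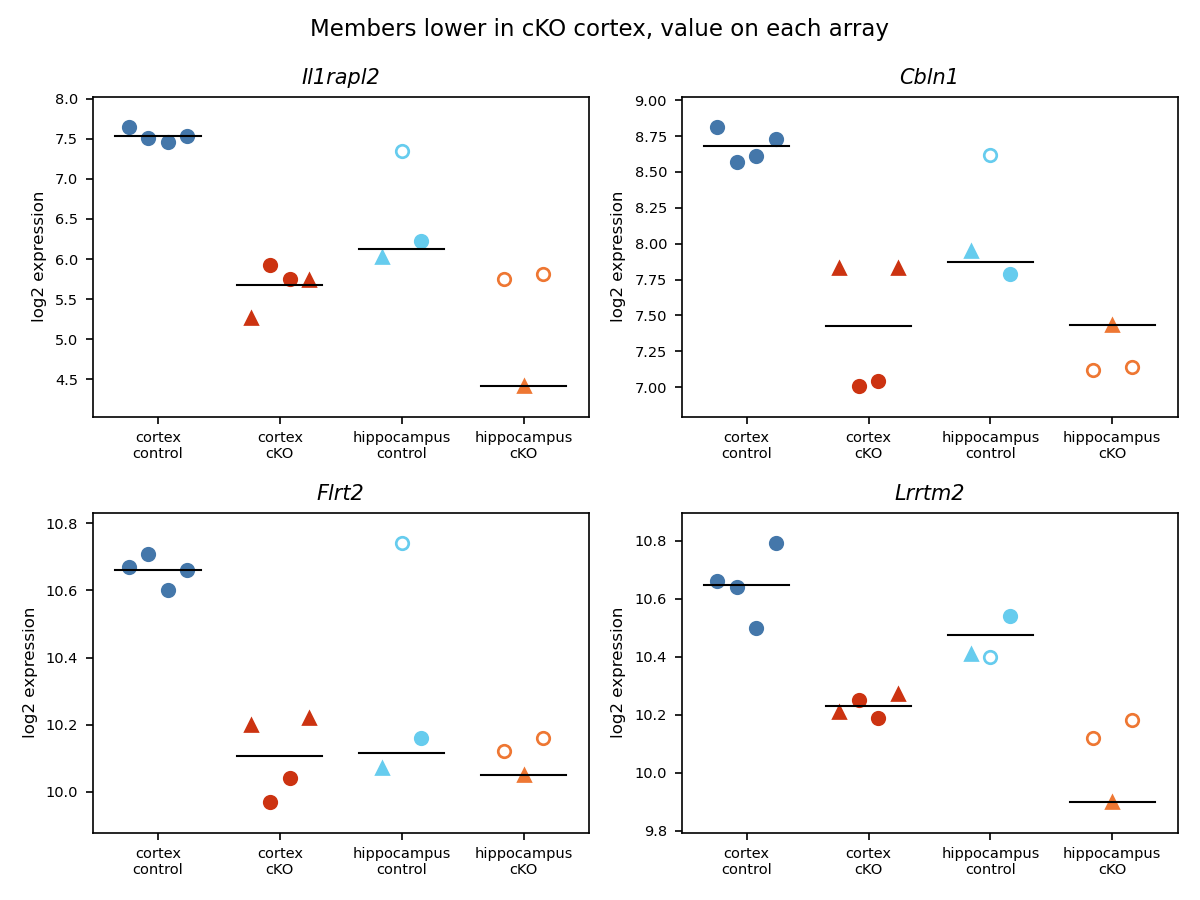
Log2 expression of the 4 members called lower in cKO cortex, with a point for each array and a line at the mean of the arrays used. Open points are the 3 near-copies of cortex arrays that were set aside, and triangles are arrays without Y-linked signal; in each panel all 4 cKO cortex points lie below all 4 control points.

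In this bulk tissue fewer cells of a type and less RNA per cell cannot be told apart. Of all probe sets 1.36% were called lower in cKO cortex and 0.591% higher. With 1 probe set per gene symbol, 4.21% of genes were called in either direction. Genes that mark deep cortical layers differed by genotype as well. Of 16 measured, 9 were called lower in cKO cortex and none higher, and their summed level was 13.04 to 13.21 on control and 12.25 to 12.44 on cKO arrays. Upper layer markers were summed at 13.02 to 13.13 on control and 12.87 to 12.95 on cKO arrays, with 2 of 12 called lower and 1 higher. Limma called none of 15 interneuron markers (5 with an unadjusted p under 0.05), none of 11 astrocyte markers (1), none of 11 oligodendrocyte lineage markers (1), none of 12 endothelial and pericyte markers (2) and none of 8 choroid plexus markers (1). Of 13 microglial markers 1 was called, higher, and their summed level was 10.24 to 10.91 on control and 10.72 to 11.29 on cKO arrays. Of 11 hippocampal subfield markers 2 were called lower, and their summed level was 11.39 to 11.72 on control and 10.95 to 11.17 on cKO arrays. The part of these cell types in the members' falls was not tested.

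The neurexins and neuroligins, the central pair of trans-synaptic partners, lay closest to zero among the families. Nrxn2 and Nrxn3 stood at -0.02 (95% interval -0.15 to 0.12) and -0.03 (-0.26 to 0.19). Nlgn1, of excitatory synapses, had a 95% interval of -0.15 to 0.15, Nlgn2, of inhibitory synapses, stood at -0.03 (-0.17 to 0.11), and Nlgn3 at 0.01 (-0.18 to 0.19). Each of these 5 intervals lies within 1.2-fold, as do those of 14 members in all. The phosphatases Ptprd, Ptprf and Ptprs stood between 0.08 and 0.10. Among their SLITRK partners Slitrk5 stood highest, at 0.23 (SE 0.06, adjusted p = 0.129), with every cKO array above every control array, and Slitrk1, Slitrk3, Slitrk4 and Slitrk6 lay between -0.05 and 0.14. The immunoglobulin adhesion genes Cadm1 and Cadm3 stood at 0.07 and 0.14. The netrin-G ligand genes Lrrc4, Lrrc4b and Lrrc4c lay between -0.14 and -0.09, and the axonal netrin Ntng1 at -0.34 (SE 0.12, adjusted p = 0.287).

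Among the scaffolds the changes ran both ways and none was called. Dlgap3 read 9.37, 9.02, 9.13 and 9.44 on control and 9.47, 9.73, 9.84 and 9.58 on cKO arrays. Every cKO array was higher, by 0.42 on average (SE 0.12, adjusted p = 0.167), and the adjusted p was at least 0.0609 in each alternative. Shank3, which sits below DLGAP proteins in the scaffold, stood at 0.34 (SE 0.10, adjusted p = 0.191), again with no overlap. Homer1 (-0.22, SE 0.06) and Homer3 (-0.24, SE 0.08) had all cKO arrays below control. Dlg1, Dlg2, Dlg3 and Dlg4, the last encoding the scaffold PSD95, lay between -0.25 and 0.18. In all, 14 members (33.3%) had groups that did not overlap, 6 higher and 8 lower, against 8.4% of all probe sets.

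**Figure D2:**
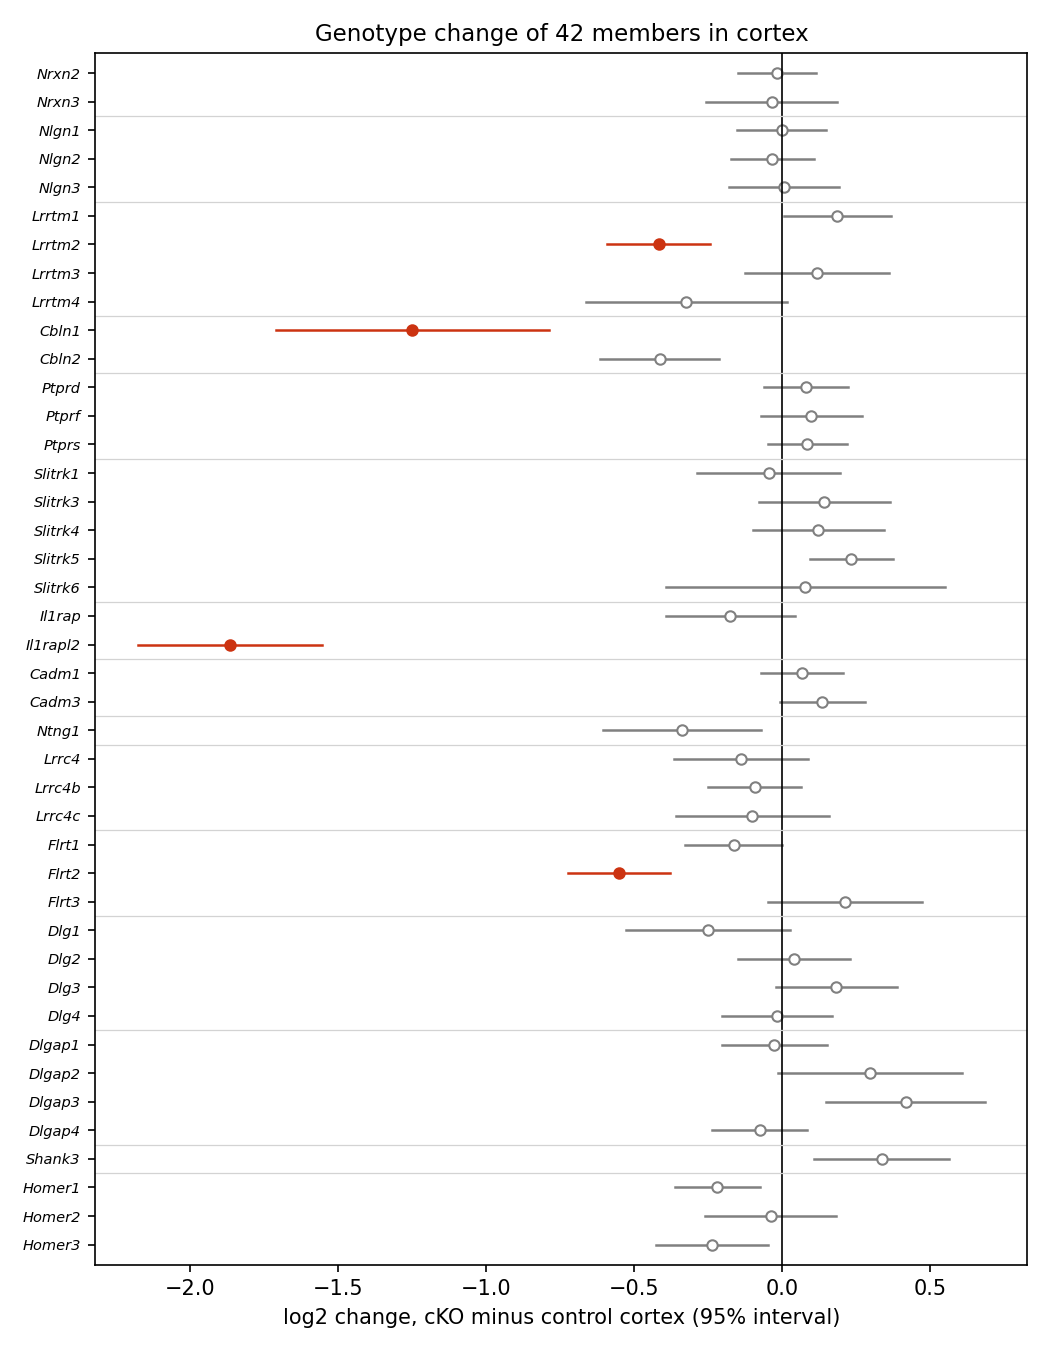
Change of each of 42 members between cKO and control cortex on the log2 scale, with its 95% interval, in order of family (families divided by grey lines). Red points are the 4 called members; most others lie within 0.263 of zero.

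The cKO cortex arrays were themselves divided. Arrays 1 and 4, without Y-linked signal, lay both above or both below arrays 2 and 3 for 24 members (57.1%), against 43.4% of all probe sets. They were lower for 18 members and higher for 6. The 4 Dlg and 4 Dlgap members were all among the lower. Dlgap2, for example, read 8.81 and 9.07 on arrays 1 and 4 and 9.28 and 9.42 on arrays 2 and 3, and Nrxn3 read 9.44 and 9.51 against 9.84 and 9.79. Cbln1 and Flrt2 ran the other way, and Il1rapl2 differed by -0.34 (mean of arrays 1 and 4 minus that of arrays 2 and 3). The control cortex arrays, all with Y-linked signal, were divided by the same numbers for some members. Control arrays 1 and 4 lay above 2 and 3 for the 4 Dlg and 4 Dlgap members, the reverse of cKO. Dlgap2 read 8.92 and 9.03 on control arrays 1 and 4 and 8.67 and 8.76 on 2 and 3. For Nrxn3 the control arrays overlapped (9.65 and 9.71 against 9.68 and 9.68). Summed marker levels were divided too. Astrocyte markers read 12.82 and 12.88 on cKO arrays 1 and 4 and 13.1 and 13.09 on 2 and 3. On control arrays they read 13.03 and 13.09 against 12.68 and 12.74. Microglial, oligodendrocyte lineage, interneuron and hippocampal subfield sums were divided likewise. In cKO the upper layer sums ran the other way (12.95 against 12.87), and deep layer, endothelial and choroid plexus sums overlapped. Whether sex, cell types or another property of the arrays goes with either split was not tested.

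CTCF binds a long DNA motif whose core can be written CCNNNAGNNGGC. These letters were searched on both strands of RefSeq promoter windows (GRCm38.p6, 250 bases before to 50 after each start). They occur in 8.61% of 32851 windows and in 9.84% of 27025 genes, and in 8 of the 32 members that the promoter table holds. Of the members called in cortex, Il1rapl2 and Flrt2 are in the table, and neither window holds a match. Their 250 bases before the start are shown because they belong to the called members that the table holds, on the plus strand at chrX:137570504-137570753 and chr12:95691976-95692225, and are wholly in lower case because capitals mark a match.
Il1rapl2: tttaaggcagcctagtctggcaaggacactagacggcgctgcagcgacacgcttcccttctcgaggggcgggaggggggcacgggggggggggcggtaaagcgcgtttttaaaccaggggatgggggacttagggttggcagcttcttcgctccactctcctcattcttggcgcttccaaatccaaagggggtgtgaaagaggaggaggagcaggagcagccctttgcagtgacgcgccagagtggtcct
Flrt2: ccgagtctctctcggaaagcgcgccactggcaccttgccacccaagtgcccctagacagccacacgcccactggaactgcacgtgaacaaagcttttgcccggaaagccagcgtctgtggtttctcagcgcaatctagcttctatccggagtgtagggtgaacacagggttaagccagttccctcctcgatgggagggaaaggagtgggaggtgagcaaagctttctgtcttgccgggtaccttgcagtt
No CTCF binding was measured here, and these letters bear only on these windows.

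The second comparison, of control hippocampus with control cortex, shows how the members differ by region without deletion. It rests on 2 hippocampus and 4 cortex arrays. Of 42 members 14 were called (33.3%, against 12.5% of all probe sets). Over 1 probe set per gene symbol 16 members were called, against 21.8% of genes. Lower in hippocampus were 11 of these (6.29% of all probe sets were called lower), and 3 were higher (6.2%). The median difference was -0.23, against 0.02 over all probe sets. The groups did not overlap for 28 members (66.7%, 5 higher and 23 lower in hippocampus), against 37.6% of all probe sets. Of 30 organizers 2 were higher and 8 lower, and of 12 scaffolds 1 was higher and 3 were lower.

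An axonal netrin and its postsynaptic ligand differed in opposite directions. Ntng1 encodes an axonal, lipid-anchored netrin, and Lrrc4c its postsynaptic ligand. Ntng1 read 7.70, 7.24, 7.19 and 7.49 in control cortex and 8.12 and 8.26 on hippocampus control 1 and 3. Lrrc4c read 9.22, 8.94, 8.82 and 8.98 in cortex and 8.04 and 7.77 in hippocampus. Neither gene's groups overlapped. Ntng1 was higher in hippocampus by 0.79 (1.73-fold, SE 0.14, limma adjusted p = 0.0108) and Lrrc4c lower, at -1.08 (2.12-fold, SE 0.14, adjusted p = 0.00227). Lrrc4 and Lrrc4b, the other netrin-G ligand genes, stood at -0.26 and -0.11 and were not called.

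Il1rapl2 was the member that differed most between regions. Its hippocampus control arrays read 6.02 and 6.23, against 7.46 to 7.64 in cortex, a difference of -1.41 (2.66-fold, SE 0.17, limma adjusted p = 0.00154). The SynCAM genes divided. Cadm3 read 10.91, 10.93, 10.90 and 10.83 in cortex and 9.96 and 10.11 in hippocampus (-0.86, SE 0.08, adjusted p = 0.000384), whereas Cadm1 read 10.07, 10.01, 9.98 and 9.99 in cortex and 10.36 and 10.39 in hippocampus (0.36, SE 0.08, adjusted p = 0.0174). Hippocampus was thus the lower region for Cadm3 and the higher one for Cadm1.

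The phosphatase Ptprd, a presynaptic hub for several postsynaptic ligands, read 11.40, 11.35, 11.43 and 11.31 in cortex and 10.52 and 10.57 in hippocampus (-0.83, 1.77-fold, SE 0.08, limma adjusted p = 0.000436). Its ligand gene Slitrk5 read 9.42, 9.47, 9.35 and 9.43 in cortex and 8.62 and 8.68 in hippocampus (-0.77, SE 0.08, adjusted p = 0.000580). For both, the gap between the groups was wider than either group's range. Ptprf was lower by a smaller amount (-0.35, SE 0.09, adjusted p = 0.0407), and Ptprs, of the same family, stood at 0.15 (SE 0.07, adjusted p = 0.206). Il1rap stood at -0.33 (SE 0.12, adjusted p = 0.0986). Flrt2 was lower, at 10.07 and 10.16 in hippocampus (-0.55, SE 0.09, adjusted p = 0.00816), and Lrrtm3 stood at -0.60 (SE 0.13, adjusted p = 0.0214).

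Of the scaffolds, Dlg2, which encodes PSD93, read 11.60, 11.43, 11.51 and 11.57 in cortex and 10.74 and 10.83 in hippocampus (-0.74, 1.67-fold, SE 0.10, limma adjusted p = 0.00303). Dlg1 (-0.61, SE 0.15, adjusted p = 0.0317) and Dlgap4 (-0.46, SE 0.09, adjusted p = 0.0113) were also lower. Dlg4 stood at -0.34 (SE 0.10, adjusted p = 0.0586) and Dlg3 at -0.26 (SE 0.11, adjusted p = 0.161). Homer3 was the 1 scaffold called higher, at 7.80 and 7.70 in hippocampus against 7.04, 7.22, 7.06 and 7.18 in cortex (0.62, 1.54-fold, SE 0.10, adjusted p = 0.00690). Homer1 (-0.23, SE 0.08) and Homer2 (0.00, SE 0.12) were not called. Dlgap1, Dlgap2 and Shank3 lay between -0.11 and -0.01.

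The matching pairs give the difference between arrays labelled hippocampus and cortex arrays where both had cortical marker levels. That the other hippocampus arrays carry the same difference is assumed and was not tested. Over the members the absolute difference within a pair had a median of 0.0572 to 0.0668, and it reached 0.372 for Slitrk6. The mean over the 3 pairs, array labelled hippocampus minus cortex array, was -0.29 for Slitrk5, -0.23 for Cadm3, 0.20 for Homer3 and 0.14 for Flrt2, and between -0.08 and 0.10 for the other called members. With it subtracted, an alternative chosen after seeing the data, 9 of the 14 members were called, against 4.82% of all probe sets. Slitrk5 was then at -0.48, Cadm3 at -0.63 and Ntng1 at 0.78. Lrrtm3, Ptprf, Cadm1, Dlg1 and Homer3 were no longer called, with adjusted p from 0.0508 to 0.0786. Both the members' count and the share of all probe sets rested on single hippocampus arrays. Without hippocampus control 1 the count was 6, against 2.56% of all probe sets, and Lrrtm3, Ptprf, Cadm1, Ntng1, Flrt2, Dlg1, Dlgap4 and Homer3 were not called (adjusted p from 0.0655 to 0.225). Without hippocampus control 3 it was 8, against 6.62%, and Lrrtm3, Ptprf, Cadm1, Ntng1, Dlg1 and Dlgap4 were not called (adjusted p from 0.0614 to 0.110). Dlg1 was also not called without cortex control 1, 3 or 4 (adjusted p up to 0.0617). Ptprf was called in 1 of the 11 fits that leave out 1 array, the fit without hippocampus cKO 2. With the control arrays alone the count was 9, of which 8 were among the 14, against 4.83% of all probe sets. With all 14 arrays as labelled it was 1 (Slitrk5), against 2.72%, so the members were then called about as often as all probe sets.

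**Figure D3:**
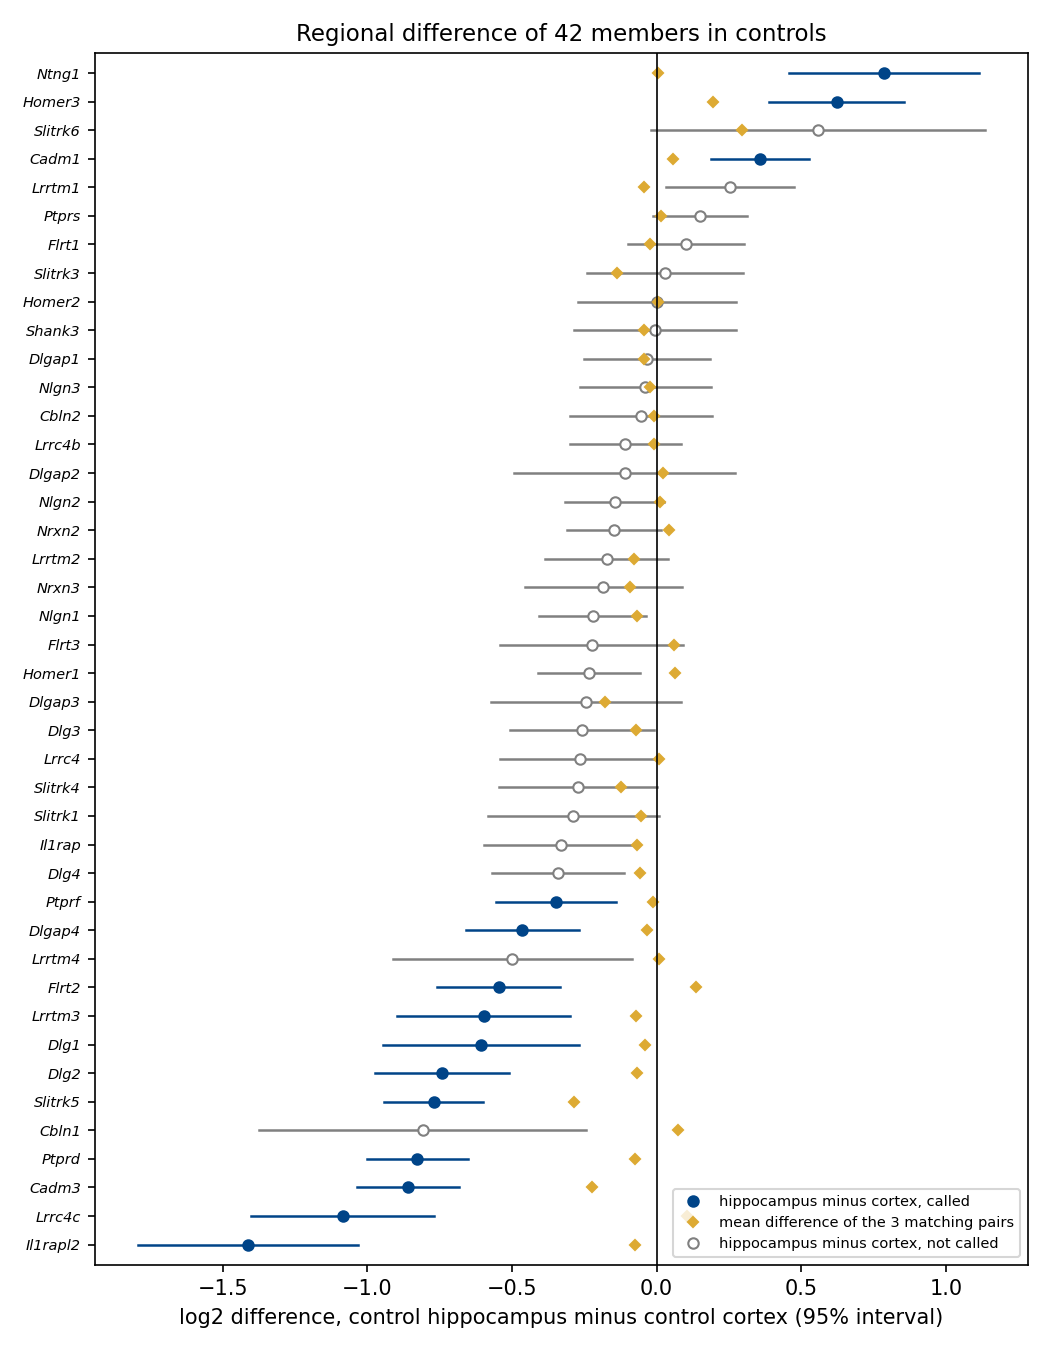
Difference of each of 42 members between control hippocampus (2 arrays) and control cortex (4 arrays) on the log2 scale, with its 95% interval. Filled points are the 14 called members, and yellow diamonds the mean difference of the 3 matching pairs, which is largest for Slitrk5 and Slitrk6.

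**Figure D4:**
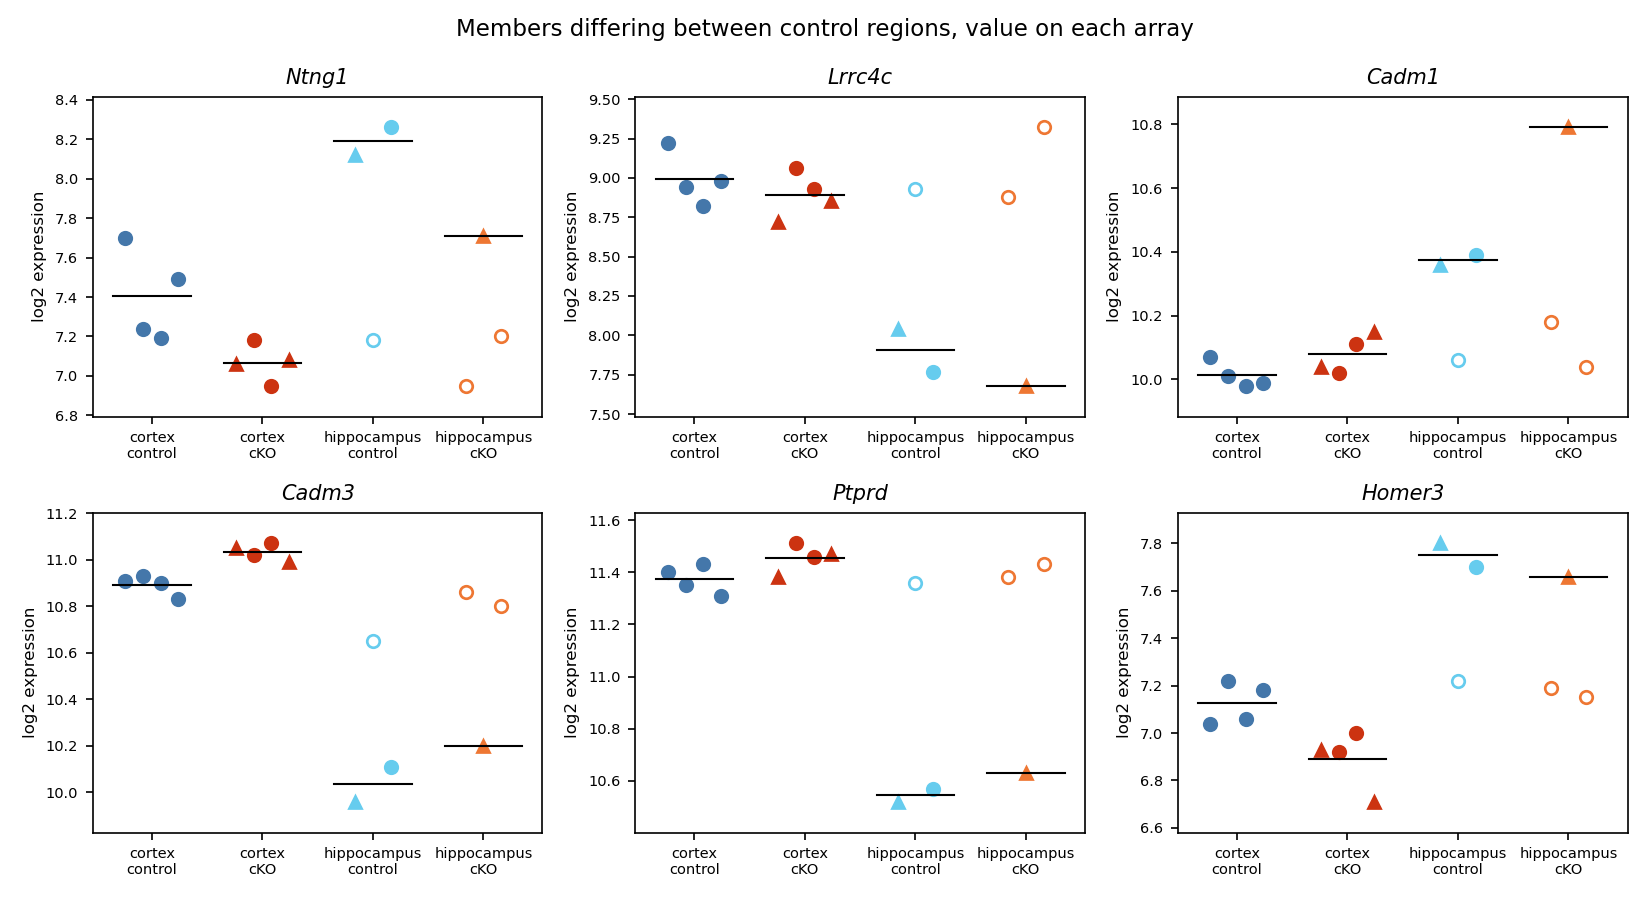
Log2 expression of 6 members that differed between control regions, with a point for each array and a line at the mean of the arrays used. Open points are the near-copies set aside, which sit with cortex, and triangles are arrays without Y-linked signal.

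Markers of cell types differed between the regions as well, where 6.29% of all probe sets were called lower in hippocampus and 6.2% higher. With 1 probe set per gene symbol, 21.8% of genes were called in either direction. Hippocampal subfield markers were summed at 11.39 to 11.72 in control cortex and 12.25 to 12.40 in control hippocampus, with 6 of 11 called higher and 1 lower. Upper layer markers ran the other way, with 8 of 12 called lower and 1 higher. Of 16 deep layer markers 7 were called lower and 4 higher (median -0.40), and their summed level was 13.04 to 13.21 in cortex and 13.11 to 13.20 in hippocampus. Of 15 interneuron markers 4 were called higher and 1 lower, and of 11 astrocyte markers 3 were called higher. Choroid plexus markers, 5 of 8 called higher, were summed at 8.25 to 8.41 in control cortex, 9.46 on hippocampus control 1 and 12.43 on control 3, so the 2 hippocampus controls differed in this tissue. The part of these cells in the members' differences was not tested.

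Of the 14 members called between regions 12 are in the promoter table. The core letters of the CTCF motif occur in a window of 4 of these (Dlg1, Dlgap4, Homer3 and Ntng1). They occur in 8 of the 32 members in the table and in 9.84% of all genes. Dlg1, which also has windows without a match, and Dlgap4 were lower in hippocampus (-0.61 and -0.46). Ntng1 and Homer3 were higher, and whether the letters go with either direction was not tested. The windows of Ntng1 and Homer3 are shown for comparison with those above, 250 bases before the start with the match in capitals. Ntng1 lies on the minus strand at chr3:110143473-110143722 and Homer3 on the plus strand at chr8:70282749-70282998. The match ends 195 bases before the start in Ntng1 and 24 bases before it in Homer3, reading in the gene's own direction in both.
Ntng1: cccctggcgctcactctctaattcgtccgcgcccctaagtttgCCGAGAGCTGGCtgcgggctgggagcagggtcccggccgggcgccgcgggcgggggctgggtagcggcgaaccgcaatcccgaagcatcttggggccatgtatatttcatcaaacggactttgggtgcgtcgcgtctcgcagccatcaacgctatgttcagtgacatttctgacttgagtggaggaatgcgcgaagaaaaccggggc
Homer3: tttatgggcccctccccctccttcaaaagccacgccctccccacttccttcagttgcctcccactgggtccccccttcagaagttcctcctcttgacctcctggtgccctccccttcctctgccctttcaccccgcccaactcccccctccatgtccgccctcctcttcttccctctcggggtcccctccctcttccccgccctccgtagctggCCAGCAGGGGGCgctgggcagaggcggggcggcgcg
In cKO cortex neither gene was called, at -0.34 for Ntng1 and -0.24 for Homer3.

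The third comparison, of genotype in hippocampus, rests on 1 cKO array against 2 controls, so the spread for the single array is borrowed from the other groups. No member was called by limma, against 0.00429% of all probe sets, and 7 members, all organizers, had an unadjusted p under 0.05. The cKO value lay outside both controls for 35 members (83.3%, 18 higher and 17 lower), against 67.3% of all probe sets. Il1rapl2 again stood lowest, at 4.42 on the cKO array against 6.02 and 6.23 on the controls (-1.70, SE 0.24, adjusted p = 0.0954). It was called in 2 of 24 alternatives, after quantile normalization (adjusted p = 0.0336) and over 1 probe set per gene (adjusted p = 0.0259). Cbln2 read 7.84 against 8.36 and 8.52 (-0.60, SE 0.15, adjusted p = 0.390), and Lrrtm2 9.90 against 10.41 and 10.54 (-0.58, SE 0.13, adjusted p = 0.342). All 3 cKO values lay below both controls. How near the Il1rapl2 value on the cKO array lies to background was not tested. Ctcf itself stood at -0.75 (SE 0.13, adjusted p = 0.172) on these arrays. Deep layer markers were summed at 13.11 to 13.20 on the controls and 12.61 on the cKO array, and choroid plexus markers at 11.83 on the cKO array; their part in these values was not tested.

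No member's genotype change was found to differ between regions by limma, against 0.00857% of all probe sets, and 4 members had an unadjusted p under 0.05 in limma. Flrt2 came nearest, at -0.06 in hippocampus and -0.55 in cortex, a difference of 0.49 (SE 0.15, adjusted p = 0.810). For Cbln1 the changes were -0.44 and -1.25, a difference of 0.81 (SE 0.41, adjusted p = 0.973). For Il1rapl2 they were -1.70 and -1.87, and the difference of 0.17 had an SE of 0.27. With 1 cKO array of hippocampus such differences are measured with a median SE of 0.17. Control hippocampus minus control cortex gave -1.41 for Il1rapl2, -0.55 for Flrt2 and -0.81 for Cbln1 (SE 0.25, adjusted p = 0.0663). That comparison shares the cortex control arrays with the genotype comparison, so the values stand side by side only.

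**Figure D5:**
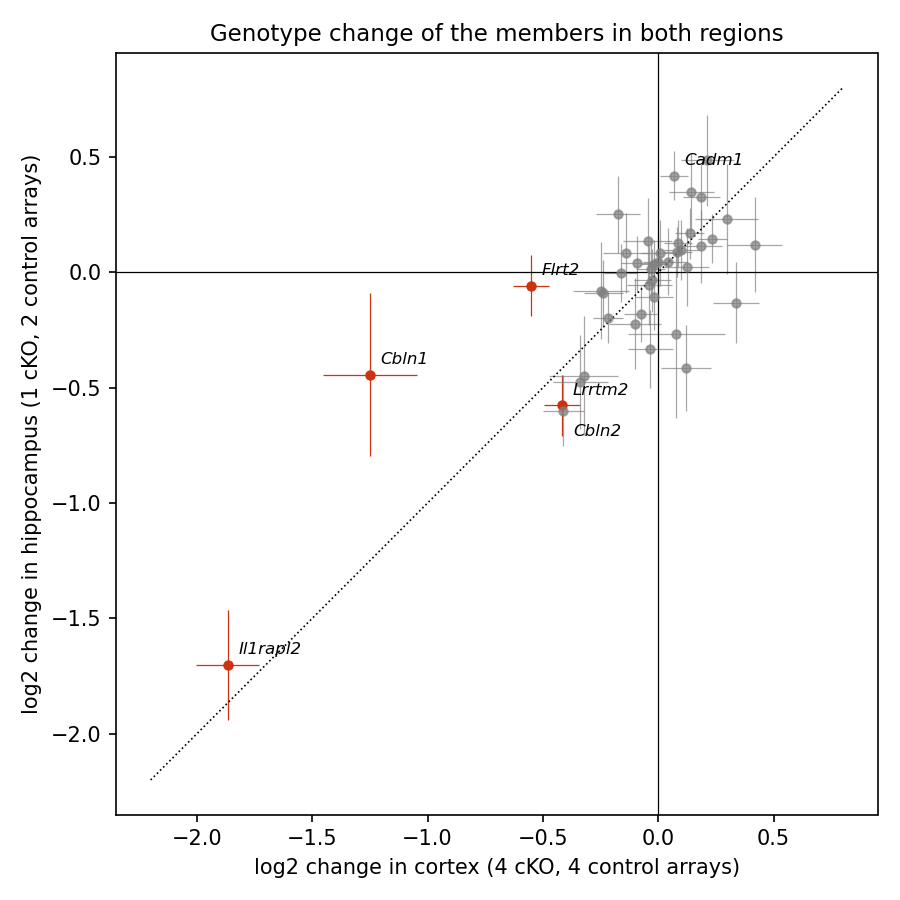
Genotype change of the 42 members on the log2 scale in cortex (horizontal, 4 cKO and 4 control arrays) and in hippocampus (vertical, 1 cKO and 2 control arrays), with bars of 1 SE and a dotted line of equal change. Red points are the 4 members called in cortex; Il1rapl2 lies near the line and Flrt2 near zero on the vertical axis.

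Other genes of synapse assembly were taken from lists outside the 49. Of 58 other synaptic adhesion genes 6 were lower and 1 higher in cKO cortex. Of all probe sets 1.36% were called lower there and 0.591% higher. Over 1 probe set per gene symbol 4.21% of genes were called in either direction. The homophilic sidekick genes Sdk1 and Sdk2 changed by -0.63 (SE 0.06, limma adjusted p = 0.00108) and -0.77 (SE 0.09, adjusted p = 0.00230). The neurexin ligand gene Nxph3, a marker of deep layers, changed by -0.86 (SE 0.10, adjusted p = 0.00234), and Cntnap4 by -0.71 (SE 0.09, adjusted p = 0.00405). Clstn2, a calsyntenin (-0.40), and the contactin gene Cntn2 (-0.62) were also lower, and the teneurin gene Tenm1, a latrophilin ligand, was higher (0.68, SE 0.07, adjusted p = 0.00133). Of 20 presynaptic active zone genes and 20 other postsynaptic density genes limma called 0 in cKO cortex, with an unadjusted p under 0.05 for 2 and 5 of them. Unc13c (-0.38, adjusted p = 0.207) and Cnih3 (-0.28, adjusted p = 0.117) came nearest. Of 25 vesicle release genes only Doc2b, a calcium sensor, was called, higher by 0.31 (SE 0.06, adjusted p = 0.0412), and of 3 other inhibitory postsynaptic genes none was (0 with an unadjusted p under 0.05). In hippocampus limma called no gene of these 5 lists by genotype, with an unadjusted p under 0.05 for 8 of the 58 adhesion genes, 2 active zone genes, 1 postsynaptic density gene and 1 vesicle release gene.

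Between the control regions the active zone list stood lower in hippocampus, with 13 of 20 genes called lower, none higher and a median of -0.42. Of all probe sets 6.29% were called lower and 6.2% higher. Over 1 probe set per gene symbol 21.8% of genes were called in either direction. Rims2, a scaffold of the release site, stood at -0.997 (SE 0.11, limma adjusted p = 0.000846). The other adhesion genes had 17 of 58 called lower and 2 higher (median -0.20), the other postsynaptic density genes 6 of 20 lower and 3 higher (-0.16), and the vesicle release genes 5 of 25 lower and 1 higher (-0.17). Of the inhibitory genes Lhfpl4, a partner of neuroligin 2 and GABA receptors, was called lower (-0.38, SE 0.09, adjusted p = 0.0244). Among the adhesion genes the contactin gene Cntn3 stood at -1.41 (SE 0.14, adjusted p = 0.000604), and C1ql2, a secreted relative of the cerebellins, at 0.77 (SE 0.13, adjusted p = 0.00660).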

How the data were processed

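Each probe set's values were deposited by the authors on a log2 scale. The submitters' processing notes list RMA, Affymetrix Expression Console, Partek 6.4 and mm9, without saying which arrays were normalized together. Groups were taken per the labels. Gene names came from the platform annotation, and promoter sequences from RefSeq (GRCm38.p6). The members and lists were chosen with earlier results of these data known. Values were used as deposited, without a filter. limma 3.58.1 in R 4.3.3 fitted 1 mean per group to 11 arrays, with eBayes and Benjamini-Hochberg adjustment over 23332 probe sets per comparison. Calls used the thresholds that the series text names for its ANOVA. SE comes from eBayes and SD from the arrays of a group; the number of arrays limits the precision. The procedure was tested on simulated data. All values are shown for members called in cortex, for up to 6 largest rises and falls called by region, for the 3 largest hippocampus changes, and for members that an alternative moved across the cortex threshold; genes outside the 49 were named where called or among the 2 smallest p of a list.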

Additional observations from a re-analysis of the deposited data

How the results depend on the processing

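The members called in cortex numbered 4, and 3 to 5 under the alternatives not named here; 2 were called with a replicate block (Flrt2, at an adjusted p of 0.104 in limma, and Lrrtm2, at 0.177, were not), 2 at a fold of 1.5 (Flrt2 and Lrrtm2 were not), and 2 to 4 when single arrays were left out. In the comparison of control regions 14 were called, 5 with a replicate block, 9 with the control arrays alone, 9 with the pair difference subtracted, 1 with all 14 arrays as labelled, and 6 to 14 when single arrays were left out. In hippocampus 0 became 1 after quantile normalization and over 1 probe set per gene symbol, and stayed 0 when single arrays were left out. The difference between regions gave 0 in each alternative run. The labels do not say that replicate numbers pair arrays, so the numbers were not taken as pairs. Same-numbered cortex arrays deviated with correlations of -0.0648 to 0.0518. For some members arrays 1 and 4 parted from 2 and 3 in both genotypes, so such correlations cannot exclude pairs. The genes called in cortex, between regions or named in hippocampus kept their sign in each alternative. Over all probe sets the cortex calls went from 455 to 118 with the block and to 212 without the 2 cKO arrays that lack Y-linked signal. Each measured member had 1 probe set, so the alternative with another probe set could not be run, and nothing could be fitted for genotype in hippocampus without its 1 cKO array. Causes of these shifts were not tested.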
